A study of Homo sapiens with 12 samples.

Results

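HLA genes and the peptide transporter gene TAP1 were read out of 2587 genes that the authors' deposited table lists for Jurkat cells, an established human line from a T-cell acute lymphoblastic leukaemia. Members were every row whose symbol begins with HLA- together with TAP1, so within the table they were chosen by name. Each row of the table had itself passed a threshold on its measured change, given below. This rule found 10 genes, of which 9 are described and counted as members below. Of these 9, 5 belong to HLA class I (HLA-B, HLA-E, HLA-F, HLA-G and the pseudogene HLA-H) and 3 to HLA class II (HLA-DQB1, HLA-DRB1 and HLA-DMB). The groups were HuRKO activated, WT activated, HuRKO rest and WT rest, with 3 libraries each and 12 in all. HuRKO cells are knocked out for HuR, the protein product of ELAVL1, which binds mRNA at AU-rich and U-rich sites, and WT cells are their wild-type comparison. Activated cells received 20 ng/mL of the phorbol ester PMA and 500 ng/mL ionomycin for 24 h, which mimics signalling from the T-cell receptor, and resting cells were left without them. The labels do not state whether the HuRKO cells are 1 clone.

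HLA class I molecules sit on nearly all nucleated cells and show peptides from inside the cell to CD8 T cells and to natural killer cells. The heterodimer of TAP1 and TAP2 pumps those peptides into the endoplasmic reticulum, where class I molecules are loaded. HLA class II molecules carry peptides from endosomes to CD4 T cells and are typical of B cells, dendritic cells and macrophages, although human T cells can make them after activation. Interferons raise transcription of many of these genes through STAT and IRF factors, and the transactivators NLRC5 and CIITA act on class I and class II promoters.

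All values come from the authors' deposited table, where every listed gene has, in 1 or more of the 4 comparisons, both a false discovery rate (FDR) below 0.05 and over 4-fold change. An HLA gene outside the list, such as HLA-C or HLA-DRA, is therefore not shown to be unchanged. Levels are normalised counts per group, rebuilt from each gene's overall mean and its 4 deposited changes. Values per library were not analysed here, the depth of each library is unknown, and no spread can be given beside a level. Each deposited log2 change is instead given with the widest standard error (SE) its FDR allows under a normal test. RNA came from bulk cultures, so fewer expressing cells and less RNA per cell cannot be told apart. ELAVL1 itself stood at 471 in activated HuRKO against 2552 in activated WT cells and at 596 in resting HuRKO against 4042 in resting WT cells. Of 12 T-cell markers, CD2, CD7, CD28 and TRAC are in the list, with a summed level of 28016 in activated HuRKO, 26577 in activated WT, 4841 in resting HuRKO and 10655 in resting WT cells. The sum hides opposite changes, since in activated HuRKO against activated WT cells CD28 was 6.74-fold higher and CD2 3.27-fold lower, and TRAC, which rose with activation while CD7 fell, makes up most of it.

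The 9 members lie within 3.22 Mb of the major histocompatibility complex (MHC) on chromosome 6, from 29722775 to 32941070 (hg38, GENCODE 29). From low to high position the order is HLA-F, HLA-G, HLA-H, HLA-E, HLA-B, HLA-DRB1, HLA-DQB1, TAP1 and HLA-DMB. HLA-E (ENSG00000204592.8) spans 30489467 to 30494205 on the plus strand and TAP1 (ENSG00000168394.10) spans 32845209 to 32853978 on the minus strand. GENCODE 29 annotates 32 genes named HLA- in this interval, 15 of them protein-coding.

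Promoter stretches are shown for the short elements, known from interferon responses and MHC promoters, that lie near the members' transcription starts. RefSeq windows (GRCh38.p14) of 250 bases before to 50 bases after a start were matched for 7 of the 9 members, and HLA-E and HLA-H had no entry. These 7 members have 10 windows. A member counts as holding an element if any of its windows does, whereas the shares given below are of single windows. Member counts and shares are therefore not like for like. The interferon-stimulated response element core, GAAA repeated after 2 other bases, was searched on both strands; it is present in 3.57% of 35116 such windows and was found for TAP1 and HLA-F. A shorter form, GAANNGAAA, was searched after the members' windows had been seen; it is present in 7.66% of windows and was found for HLA-B before its start and for HLA-DQB1 32 bases after its start. The stretches below are written 5′ to 3′ in the direction of the gene with the match in capitals, and TAP1 holds overlapping matches of the longer form.
TAP1 (chr6:32853818-32853843, minus strand, match from 134 bases before the start): gccgcTTTCGATTTCGCTTTCcccta
HLA-F (chr6:29723270-29723295, plus strand, 156 bases before the start): ccccagagTTTCTCTTTCtctcccaa
HLA-B (chr6:31357318-31357342, minus strand, 155 bases before the start): cccctgagTTTCACTTCttctccca

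NF-kB is activated by PMA and ionomycin, and elements of its kind were searched too. A pattern of GGG and TTCC with 3 bases between, on both strands, is present in 6.52% of windows and among members was found for TAP1. The enhancer A element of class I promoters was searched as a palindrome, shown in capitals for HLA-B below, after the windows had been seen; it is present in 0.0313% of windows and was found for HLA-B.
TAP1 (chr6:32853759-32853784, minus strand, 72 bases before the start): ctgttcctGGGACTTTCCgagagccc
HLA-B (chr6:31357339-31357363, minus strand, 177 bases before the start): cagcgttGGGGATTCCCCactcccc

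The Y box core CCAAT, part of the module that NLRC5 and CIITA use, was searched on either strand. It was found in at least 1 window of each of the 7 matched members and is present in 34.6% of all windows. For HLA-G and TAP1, which have more than 1 window, not every window held it. Several windows hold more than 1 match, in both orientations and in both classes, and which of them is the Y box in use was not tested. Beside the matches printed below, HLA-B has one from 74 bases, HLA-DRB1 from 195 bases, HLA-DQB1 from 64 bases and TAP1 from 249 bases before the start. The class I matches nearest to the start lie in nearly the same sequence, with 24 of 25 positions identical between HLA-F and HLA-B, 24 between HLA-G and HLA-B and 23 between HLA-F and HLA-G. The matches further upstream in HLA-F and HLA-B share 18 of 25 positions, and those shown for HLA-DRB1 and HLA-DQB1 share 17.
HLA-F (chr6:29723367-29723391, plus strand, 57 bases before the start): tctagagaagCCAATcagtgtcgcc
HLA-G (chr6:29827759-29827783, plus strand, 56 bases before the start): tttagagaagCCAATcagcgtcgcc
HLA-B (chr6:31357221-31357245, minus strand, 56 bases before the start): tctagagaagCCAATcagcgtcgcc
HLA-F (chr6:29723342-29723366, plus strand, 82 bases before the start): tctcactcccATTGGgcgtcgcgtt
HLA-B (chr6:31357246-31357270, minus strand, 81 bases before the start): tcccactcccATTGGgtattggata
HLA-DRB1 (chr6:32589880-32589904, minus strand, 46 bases before the start): tcagatgctgATTGGttctccaaca
HLA-DQB1 (chr6:32666731-32666755, minus strand, 88 bases before the start): tccagtgctgATTGGttcttttccg
HLA-DMB (chr6:32941036-32941060, minus strand, 22 bases before the start): gcctacctagCCAATctgtccctgt

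A GAS element, TTCNNNGAA, was found for TAP1 only among the matched members, in the window of an inner start, and is present in 7.66% of all windows. TGACG, shared by the X2 box and the cyclic AMP response element, was found for HLA-B, HLA-DQB1 and HLA-DMB and is present in 24.6%. These matches describe letters in a window and do not show binding.

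On activation every member rose in HuRKO cells and 8 of 9 rose in WT cells. None fell. Among all listed genes 58.1% rose and 18.5% fell in HuRKO cells, and 52% rose and 21.8% fell in WT cells. The median log2 change of the members was 2.43 in HuRKO and 2.73 in WT cells, beside 1.45 and 1.42 over all listed genes. A member had to pass the table's own threshold in some comparison, and for 8 of the 9 the change on activation in WT cells was past it, so these counts do not stand as support. HLA-DMB was listed through the comparison of activated HuRKO with activated WT cells, and TAP1 only through comparisons that include activated WT cells, where it is highest.

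**Figure D1:**
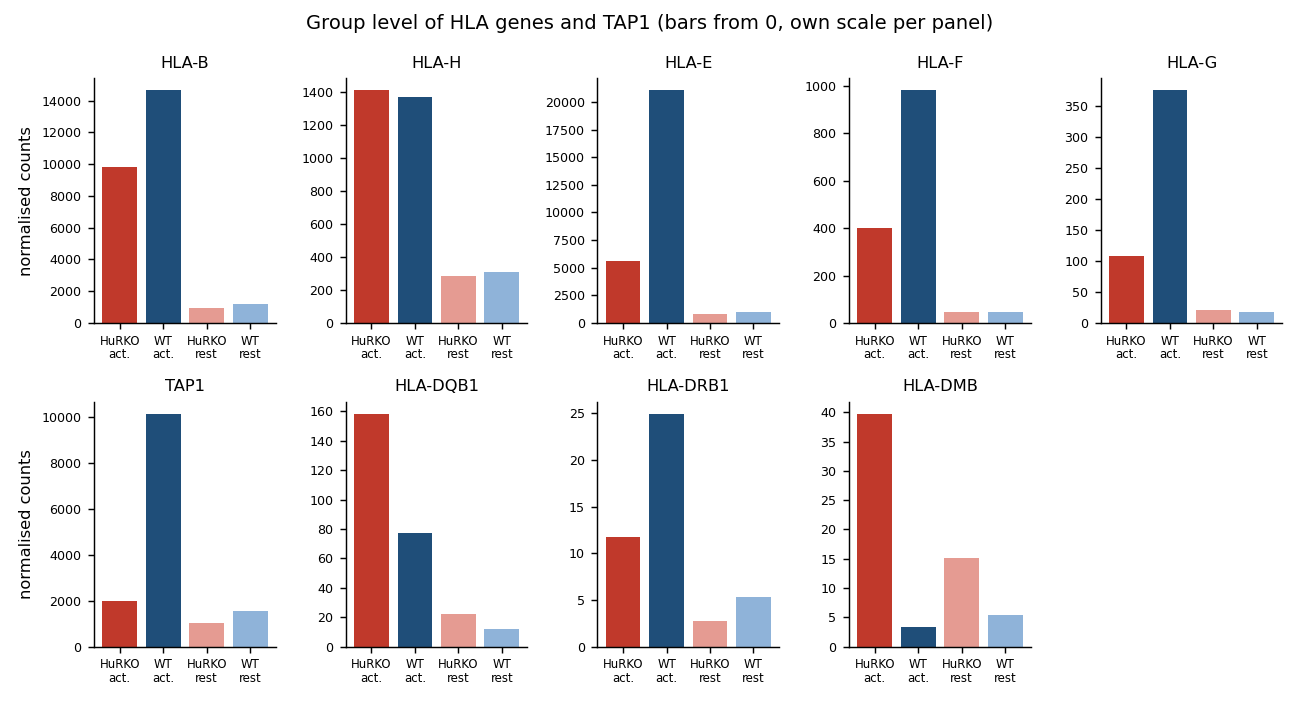
Bars give the group level of each member in normalised counts, from 0 and on a separate scale per panel, for activated HuRKO, activated WT, resting HuRKO and resting WT cells; levels are means over 3 libraries rebuilt from the deposited table and have no error bar. HLA-E stands at 5642 in activated HuRKO and 21082 in activated WT cells, whereas HLA-H stands at 1412 and 1372.

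HLA-B encodes a classical class I molecule, which presents peptide to CD8 T cells. It was at 9822 in activated HuRKO, 14673 in activated WT, 966 in resting HuRKO and 1188 in resting WT cells. Both activated groups were thus above both resting groups. HLA-B rose 10.2-fold in HuRKO (FDR 1.4e-21) and 12.4-fold in WT cells (FDR 6.8e-25) in the authors' deposited table.

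HLA-H is a class I pseudogene. It was at 1412 in activated HuRKO, 1372 in activated WT, 285 in resting HuRKO and 306 in resting WT cells. It rose with activation in both genotypes, by 2.31 (FDR 8.6e-32) in HuRKO and 2.16 (FDR 9.3e-28) in WT cells on the log2 scale, per the authors' deposited table. Reads of class I genes with near-identical stretches can be shared or misassigned in counting, so its values are uncertain. The same limit applies to the other class I members, HLA-F and HLA-G included, and its extent was not tested.

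HLA-E, HLA-F and HLA-G encode non-classical class I molecules. HLA-E presents leader peptides of other class I molecules to the CD94 and NKG2A receptor of natural killer cells. HLA-E was at 5642 in activated HuRKO, 21082 in activated WT, 842 in resting HuRKO and 952 in resting WT cells. It rose 6.70-fold in HuRKO (log2 change 2.74, SE at most 0.17, FDR 4.3e-59) and 22.1-fold in WT cells (log2 change 4.47, SE at most 0.17, FDR 4.4e-156) in the authors' deposited table.

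HLA-F was at 399 in activated HuRKO, 983 in activated WT, 44.2 in resting HuRKO and 44.2 in resting WT cells. HLA-G, best known from the placenta, was at 108 in activated HuRKO, 375 in activated WT, 20.1 in resting HuRKO and 17.1 in resting WT cells. Both were low at rest in either genotype and highest in activated WT cells. In WT cells the rises of HLA-E, HLA-F and HLA-G were of like size, at 22.1-fold, 22.3-fold and 22.0-fold. In HuRKO cells they were 6.70-fold, 9.01-fold and 5.39-fold. The log2 intervals in WT cells were at most 4.14 to 4.80 for HLA-E, 3.64 to 5.31 for HLA-F and 3.85 to 5.07 for HLA-G. Equal rises in WT cells are therefore not shown. The log2 changes of HLA-F and HLA-G on activation were 3.17 and 2.43 in HuRKO (FDR 1.3e-13 and 2.7e-15), against 4.48 and 4.46 in WT cells (FDR 1.1e-25 and 6.4e-47), in the authors' deposited table.

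TAP1 was at 2007 in activated HuRKO, 10155 in activated WT, 1039.8 in resting HuRKO and 1543 in resting WT cells. Activated WT cells stood far above the other groups. TAP1 rose 1.93-fold in HuRKO (log2 change 0.95, SE at most 0.27, FDR 0.00056) and 6.58-fold in WT cells (log2 change 2.72, SE at most 0.26, FDR 1.1e-24) in the authors' deposited table.

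HLA-DQB1 and HLA-DRB1 encode beta chains of class II molecules, and HLA-DMB encodes a chain of HLA-DM, which helps to load peptide on class II. HLA-DQB1 was at 158 in activated HuRKO, 77.2 in activated WT, 22.2 in resting HuRKO and 11.7 in resting WT cells. HLA-DRB1 was at 11.7 in activated HuRKO, 25.0 in activated WT, 2.76 in resting HuRKO and 5.32 in resting WT cells. HLA-DMB was at 39.7 in activated HuRKO, 3.33 in activated WT, 15.1 in resting HuRKO and 5.42 in resting WT cells. HLA-DQB1 and HLA-DRB1 were higher in both activated groups than at rest, whereas HLA-DMB was higher in both HuRKO groups than in WT cells. On activation HLA-DQB1 rose 7.13-fold in HuRKO (FDR 1.1e-19) and 6.62-fold in WT cells (FDR 2.2e-13) in the authors' deposited table. HLA-DRB1 rose 4.26-fold in HuRKO (FDR 0.006) and 4.70-fold in WT cells (FDR 0.00054), per the authors' deposited table. HLA-DMB rose 2.62-fold in HuRKO cells (FDR 0.0054), while its change in WT cells was -0.70 (SE at most 0.90, FDR 0.434), per the authors' deposited table. The levels of HLA-DRB1 and HLA-DMB are low, with means of 11.2 and 15.9 over all libraries, and their changes are correspondingly imprecise.

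Across genes, levels were compared per kilobase of annotated exon. That length joins the exons of all annotated transcripts of a gene, 3051 bases for HLA-B and 2975 for HLA-E. The transcripts in use may be shorter, so the order of genes within a group depends on the annotation. A change of the ratio between groups does not depend on it. At rest HLA-B was the highest of the 9 on that scale, at 317 per kb in HuRKO and 389 per kb in WT cells, with HLA-E at 283 per kb in HuRKO and 320.0 per kb in WT cells. In activated HuRKO cells HLA-B was also first, at 3219 per kb against 1896 per kb for HLA-E. In activated WT cells HLA-E was first, at 7086 per kb against 4809 per kb for HLA-B. The ratio of HLA-E to HLA-B per kb was 0.589 in activated HuRKO, 1.47 in activated WT, 0.894 in resting HuRKO and 0.822 in resting WT cells. No spread between libraries is known for this ratio. The class II members stayed far below, at no more than 32.3 per kb in any group.

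Between genotypes, HLA-E, HLA-F, HLA-G and TAP1 were lower in activated HuRKO than in activated WT cells, HLA-DQB1 and HLA-DMB were higher, and HLA-B, HLA-H and HLA-DRB1 were not called. This is 4 of 9 members lower and 2 of 9 higher, beside 35.4% lower and 42.2% higher among all listed genes, and so few genes set neither share apart from the background. The median log2 change of the members was -1.09, beside 0.36 over all listed genes. In the authors' deposited table TAP1 changed by -2.34 (SE at most 0.27, FDR 1.3e-18), which is 5.06-fold lower, and HLA-E by -1.90 (SE at most 0.17, FDR 1.6e-29), which is 3.74-fold lower. HLA-G was 3.46-fold lower (FDR 2.7e-13) and HLA-F 2.47-fold lower (FDR 0.0024), per the authors' deposited table. HLA-DMB was higher by 3.58 on the log2 scale (SE at most 0.65, FDR 3.2e-08) and HLA-DQB1 2.05-fold higher (log2 change 1.04, SE at most 0.28, FDR 0.00026) in the authors' deposited table. Selection favoured 2 of these changes. TAP1 was listed only through comparisons that include activated WT cells, and HLA-DMB only through this comparison. Their FDR values here therefore do not stand as support.

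A missed call does not show equal levels, and the intervals differ in width. The 95% interval of HuRKO over WT after activation ran at most from -0.46 to 0.54 on the log2 scale for HLA-H and from -1.35 to 0.20 for HLA-B. For HLA-H these bounds leave out a 2-fold change in either direction, provided that the authors' test was a normal one. For HLA-DRB1 the interval ran from -2.24 to 0.06 (FDR 0.0634 in the authors' deposited table).

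**Figure D2:**
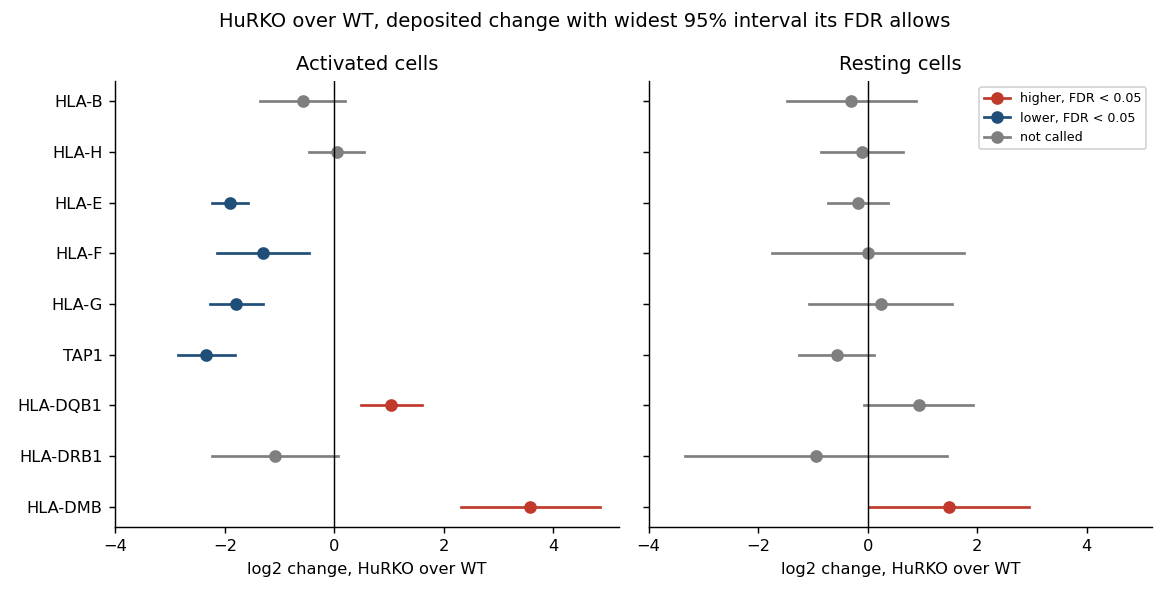
Points give the deposited log2 change of HuRKO over WT for each member in activated cells (left) and resting cells (right); lines give the widest 95% interval that the FDR allows, and colour marks the call at FDR below 0.05. HLA-E, HLA-F, HLA-G and TAP1 lie below 0 in activated cells, at -1.90, -1.30, -1.79 and -2.34, and in resting cells every interval but that of HLA-DMB includes 0.

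At rest 1 of 9 members was called between genotypes, beside 25% of all listed genes called higher and 15.4% called lower. HLA-DMB was 2.80-fold higher in resting HuRKO cells (log2 change 1.48, SE at most 0.75, FDR 0.0474 in the authors' deposited table), a call that was lost at an FDR of 0.01. The 5 class I members had log2 changes between -0.30 and 0.24, and none was called. TAP1 was at 1039.8 in HuRKO against 1543 in WT cells (FDR 0.102) and HLA-DQB1 at 22.2 against 11.7 (FDR 0.0687), again by the authors' deposited table. The median log2 change of the members at rest was -0.10, beside 0.18 over all listed genes.

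Whether activation acted differently in HuRKO and WT cells was tested as a difference of the deposited responses, with a standard error bounded from the FDR values and p multiplied by the 58780 genes of GENCODE 29. HLA-E was the only member past 0.05 in this test. Its rise was smaller in HuRKO than in WT cells, with a difference of -1.73 on the log2 scale (SE at most 0.24 from the authors' FDR values, adjusted p = 2.7e-08). Over all listed genes 20.2% passed, 10.4% with a log2 response in HuRKO cells below that in WT cells and 9.78% above it. By the same bound from the authors' values, the difference was -1.77 for TAP1 (SE at most 0.38, unadjusted p = 3.6e-06, adjusted p = 0.211) and -2.03 for HLA-G (SE at most 0.44, unadjusted p = 3.5e-06, adjusted p = 0.203). Multiplying by the 2587 listed genes instead brings both past 0.05, at 0.0093 and 0.0089. TAP1 was listed only through activation in WT cells and activated HuRKO against activated WT cells, both part of this difference. A smaller rise of TAP1 in HuRKO cells was thus favoured by its selection, and its p-values do not stand as support. HLA-F differed by -1.31 and HLA-DMB by 2.10, each with an adjusted p of 1.

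HLA-B, HLA-H, HLA-DQB1 and HLA-DRB1 had differences between -0.28 and 0.14, each with an adjusted p of 1. The 95% interval was at most -1.25 to 0.69 for HLA-B and -0.40 to 0.69 for HLA-H. The bound is conservative, so a missed call does not show equal responses. A difference between members, such as between HLA-E and HLA-B, was not tested.

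**Figure D3:**
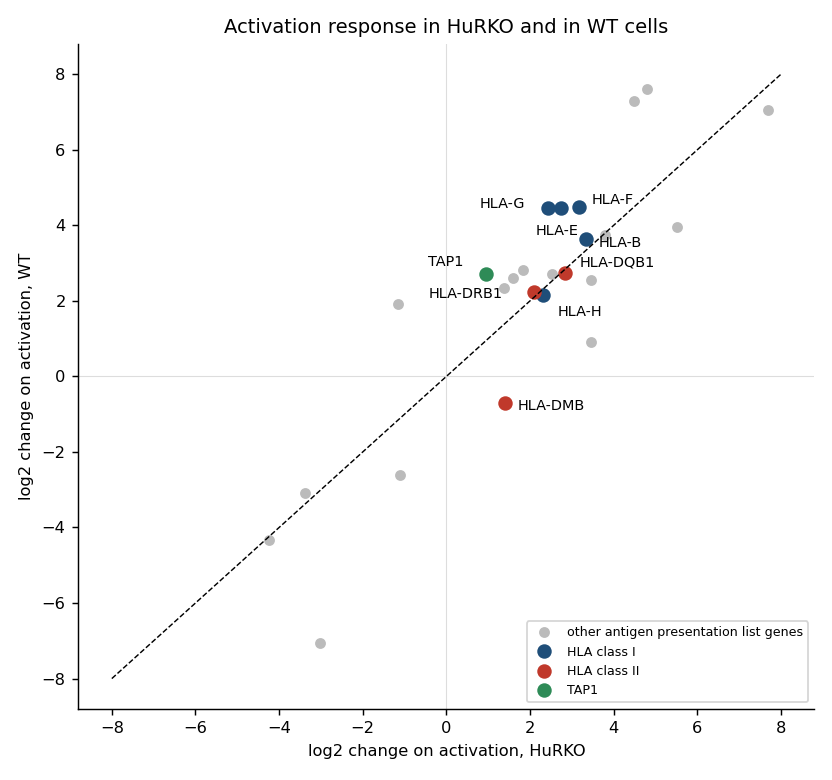
Each point is 1 gene, with its deposited log2 change on activation in HuRKO cells on the horizontal axis and in WT cells on the vertical axis; the dashed line marks equal responses and grey points are the other antigen presentation genes. HLA-E, HLA-F and HLA-G sit above the line at about the same height (4.47, 4.48 and 4.46 in WT cells), TAP1 sits above it at 0.95 and 2.72, and HLA-DMB sits below it at 1.39 and -0.70.

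HLA-E, HLA-F and HLA-G resembled one another over the 4 groups more than they resembled HLA-H. The root mean square difference between centred log2 levels was 0.171 for HLA-E and HLA-G, 0.247 for HLA-E and HLA-F and 0.269 for HLA-F and HLA-G, against 0.971 for HLA-E and HLA-H. HLA-B lay between them, at 0.324 from HLA-F and 0.666 from HLA-H. These distances rest on 4 group means and have no test.

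By the same measure the listed genes most like TAP1 were BMP4 (0.165), SEMA7A (0.187) and IFI35 (0.188). The genes most like HLA-G were NSMF (0.054), CYP11A1 (0.117) and TNFSF15 (0.134), and those most like HLA-E were CYP11A1 (0.135), KIF25-AS1 (0.165) and NSMF (0.188). NSMF was at 199 in activated HuRKO, 658 in activated WT, 37.6 in resting HuRKO and 33.2 in resting WT cells. SLC28A3, KIF25-AS1 and AHSP were most like HLA-F, but these 3 and CYP11A1 were in both resting groups under the floor of 1 normalised count (3 counts summed over a group's libraries), so their likeness depends on that floor. The genes most like HLA-B were SPRY4-AS1, FAM43A and AK1, with differences from 0.121 to 0.165. SPRY4-AS1 in resting HuRKO cells and FAM43A in both resting groups were also under that floor.

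The remaining genes of antigen processing and presentation were counted from a list of 65, of which 16 are in the table. None of the 14 genes named for peptide supply and loading, such as B2M, TAP2, TAPBP and the immunoproteasome subunits, is among them, so nothing can be said of those here. In activated cells 7 of the 16 were lower and 3 higher in HuRKO than in WT cells, beside 35.4% lower and 42.2% higher among all listed genes, and with changes of at least 2-fold the lower count was 3. At rest 2 were lower and 2 higher in HuRKO than in WT cells, beside 15.4% and 25%. On activation 11 rose and 5 fell in HuRKO cells, beside 58.1% and 18.5%, and 11 rose and 4 fell in WT cells, beside 52% and 21.8%. The median log2 change of the 16 in activated cells was -0.34, beside 0.36 over all listed genes.

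The 5 listed regulators described here were all lower in activated HuRKO than in activated WT cells, beside 35.4% of all listed genes. STAT2, IRF9 and JAK2 passed the table's threshold only through activation in WT cells. They are highest in activated WT cells, so a lower level in HuRKO cells was favoured by their selection. IRF8 passed it only through activated HuRKO against activated WT cells, so its lower level there is the change that listed it. The count of regulators therefore does not stand as support. STAT2 and IRF9, subunits of the interferon-stimulated gene factor, were at 1835 and 154 in activated HuRKO against 3159 and 294 in activated WT cells. The kinase JAK2 was 3.70-fold lower and the transcription factor IRF8 7.43-fold lower in activated HuRKO than in activated WT cells.

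NLRC5, the transactivator of class I genes, was at 2953 in activated HuRKO, 4103 in activated WT, 269.6 in resting HuRKO and 704 in resting WT cells. It was 1.39-fold lower in activated HuRKO (FDR 0.0016) and 2.61-fold lower in resting HuRKO cells (FDR 2.3e-18) in the authors' deposited table. No class I member was called at rest, but a missed call does not show equal levels. On the log2 scale NLRC5 changed by -1.39 at rest. The intervals at rest ran at most from -1.75 to 1.76 for HLA-F and from -1.48 to 0.89 for HLA-B. They were at most -0.73 to 0.38 for HLA-E, -1.07 to 1.54 for HLA-G and -0.85 to 0.65 for HLA-H. Whether NLRC5 acts on these genes here was not tested. By the bound from the authors' values, the responses to activation differed for IRF8, by -3.08 (adjusted p = 2.8e-12), and for STAT2, by -0.95 (adjusted p = 4.7e-07). IRF8 went in opposite directions, with a change on activation of -1.16 in HuRKO (FDR 1.6e-05) and 1.92 in WT cells (FDR 1.6e-14) in the authors' deposited table, while STAT2 rose less in HuRKO than in WT cells. NLRC5 had the opposite sign, with a difference of 0.91 that did not pass by the same bound from the authors' values (adjusted p = 0.63).

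CD74, the invariant chain that escorts class II molecules, lay below the floor in both resting groups and was at 40.8 in activated HuRKO against 27.1 in activated WT cells. It rose at least 40.8-fold in HuRKO and at least 27.1-fold in WT cells. CTSS, a protease that degrades the invariant chain, rose 5.73-fold in HuRKO and 6.60-fold in WT cells. Neither was called between genotypes in activated cells (FDR 0.282 and 0.408 in the authors' deposited table).

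The lipid-presenting class I-like genes CD1B and CD1E went the other way on activation. CD1B was at 65.6 in activated against 679 in resting HuRKO cells and at 93.7 in activated against 796 in resting WT cells. CD1E fell 19.0-fold in HuRKO and 20.1-fold in WT cells. AZGP1, which encodes a secreted protein with a class I-like fold, was at 41.3 in activated HuRKO cells and below the floor in activated WT cells, at least 41.3-fold higher. Among receptors for these molecules, KLRD1, which encodes CD94, the partner of NKG2A in binding HLA-E, was at 165 in activated HuRKO and 116 in activated WT cells (FDR 0.184 in the authors' deposited table). CD4, the co-receptor for class II, was at 45.9 in activated HuRKO against 6.92 in activated WT cells and was 6.64-fold higher. KLRK1, which encodes NKG2D, was at 9.88 in activated HuRKO against 70.8 in activated WT cells and was 7.17-fold lower. Of the 6 listed receptors 2 were higher and 1 lower in activated HuRKO than in activated WT cells, beside 42.2% and 35.4% of all listed genes. CD8B, the other one called higher, was at 7.25 in activated HuRKO and below the floor in activated WT cells. KLRC1 and LILRB1 were not called (FDR 0.073 and 0.574 in the authors' deposited table).

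**Figure D4:**
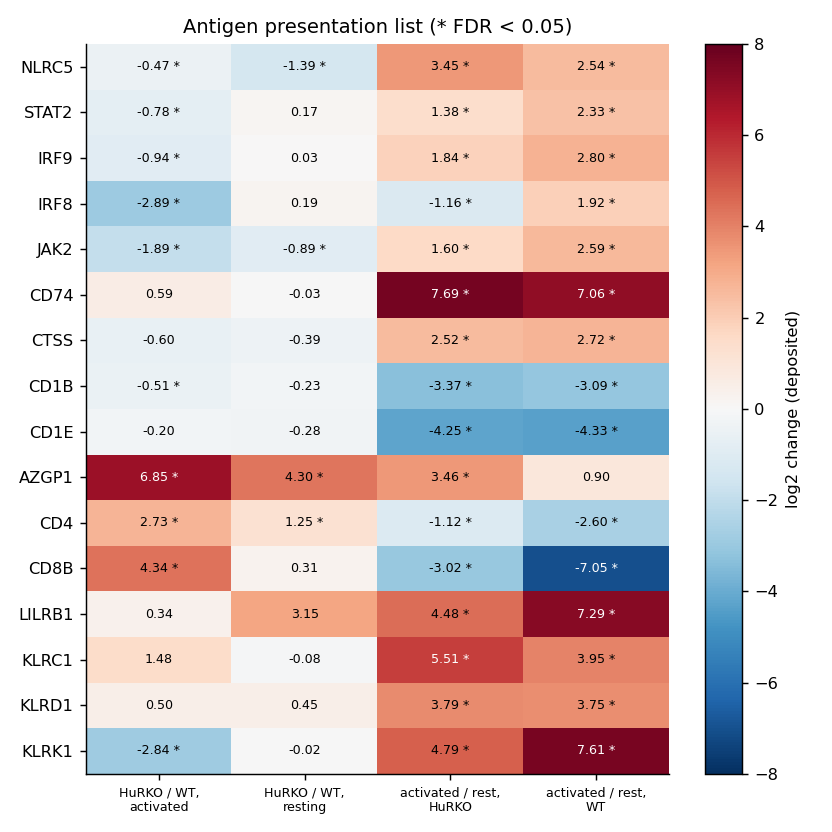
Rows are 16 listed genes of antigen processing and presentation outside the members and columns are the 4 comparisons; colour and number give the deposited log2 change and a star marks FDR below 0.05. The first 5 rows, the regulators, are all negative in activated HuRKO against WT cells, from -0.47 for NLRC5 to -2.89 for IRF8; changes of CD74, AZGP1, CD8B, LILRB1, KLRC1 and KLRK1 involve a group below the floor and are not bounds.

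Class II genes are markers of other cell types, so those markers were set beside them. Of 8 B-cell markers CD79B and IGHM are listed, with a summed level of 314 in activated HuRKO, 54.3 in activated WT, 25.4 in resting HuRKO and 5.17 in resting WT cells. In activated cells that sum is mostly IGHM, at 297 in HuRKO against 34.5 in WT cells, while CD79B was at 17.2 in HuRKO against 19.8 in WT cells and was not called (FDR 0.773 in the authors' deposited table). MS4A1 and the other markers of that list were not analysed here. Of 11 monocyte, macrophage and dendritic cell markers ITGAX and CSF1R are listed, with a summed level of 152 in activated HuRKO, 365 in activated WT, 1.12 in resting HuRKO and 1.51 in resting WT cells. In activated HuRKO against activated WT cells ITGAX was 2.96-fold lower (FDR 1e-08) and CSF1R 4.44-fold higher (FDR 0.0072), per the authors' deposited table. None of 5 epithelial markers is listed. The part of these in the class II values was not tested.

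Along the MHC, 14 other listed genes lie between HLA-F and HLA-DMB, and they moved in both directions. In activated cells 5 were higher and 5 lower in HuRKO than in WT cells, which is near the 42.2% higher and 35.4% lower among all listed genes. LTA and TNF, cytokine genes between HLA-B and the class II genes, were 8.36-fold and 24.2-fold lower, and DDAH2, nearer to the class II genes, was 4.79-fold higher. IER3, the listed coding gene outside the members nearest to HLA-E, was 4.09-fold lower in activated and 1.98-fold higher in resting HuRKO cells. HCP5, a long non-coding RNA between HLA-B and LTA, was at 113 in activated HuRKO against 9.24 in activated WT cells, whereas HLA-B was not called.

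**Figure D5:**
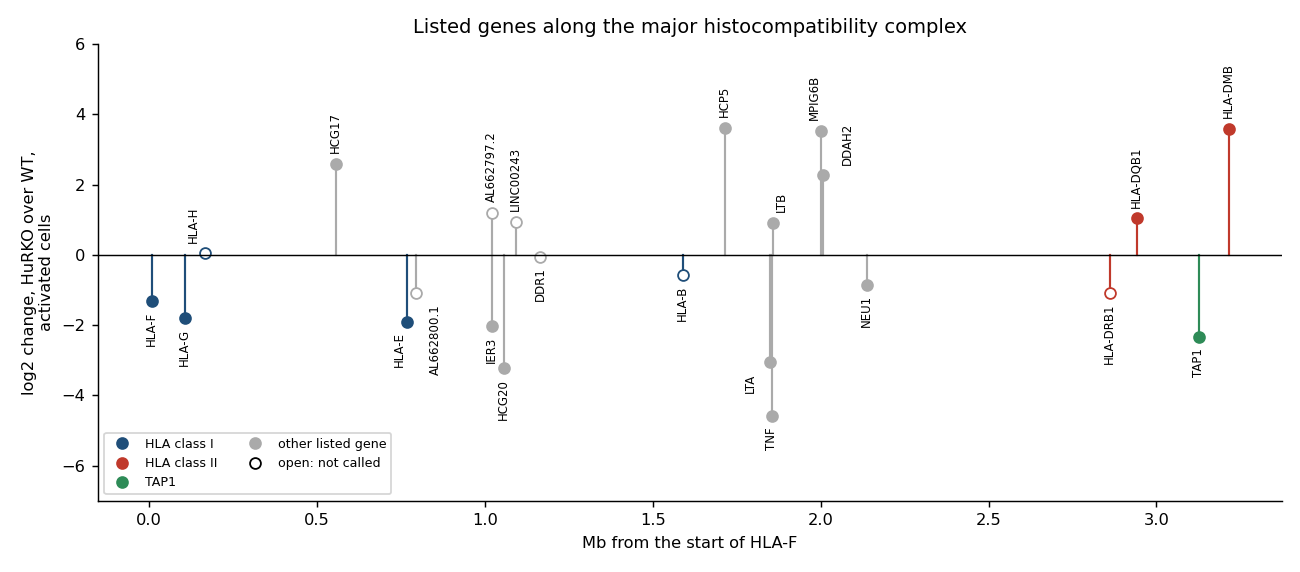
Listed genes are placed by the distance of their midpoint in Mb from the start of HLA-F, with the deposited log2 change of HuRKO over WT in activated cells on the vertical axis; filled points passed FDR below 0.05. Neighbours differ in sign, such as TAP1 at -2.34 and the next listed gene, HLA-DMB, at 3.58 and TNF at -4.59 beside LTB at 0.90.

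Since HuR binds AU-rich stretches, the pentamer AUUUA was counted in 1 annotated 3′ UTR per coding member. HLA-E had 2 in 1459 bases, and TAP1 and HLA-G had 1 each in 370 and 383 bases. HLA-B, HLA-F, HLA-DQB1, HLA-DRB1 and HLA-DMB had 0. At least 1 is present in 65.8% of 19124 coding genes, against 3 of the 8 coding members. The median 3′ UTR of those coding genes is 964.5 bases long, and among the members only that of HLA-E is longer. The share and the count were thus not compared at equal length. The count describes letters and does not show binding by HuR.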

How the data were processed

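Poly(A) RNA of 12 libraries was sequenced from directional libraries made with an NEBNext Ultra kit, per the labels' protocols. TopHat, Bowtie2 and the hg38 build are named in the submitters' processing notes; which counter, strand setting and test were used is not given in the sources used here. The authors deposited 1 table of comparisons. Its baseMean was taken as a signal, the mean normalised count over all libraries, per the file headers. The deposited log fold changes were taken as log2 values; the header states no base, and below the floor 30.6% of resting WT levels fall in 1 window 10% wide on base 2, against 5.34% on base e. The deposited FDR is a p-value adjusted by the authors. All 2587 genes pass FDR 0.05 with an absolute log2 change above 2 in some comparison. There were 0 unmapped per-sample columns.

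Group levels follow from the mean and the changes, since the groups are of equal size. A level under 1 normalised count, or 3 counts summed over 3 libraries, was treated as below the floor, which covers counting error only. Calls use FDR below 0.05. An SE bound is the absolute change divided by the normal quantile of the FDR, since p is at most the FDR. Intervals are 95%. Both hold only if the authors' test was a normal one, which is not known. For the difference of responses the smaller of the 2 possible variance bounds (both activation changes, or both HuRKO to WT changes) was used, and the approach was tested on simulated data of 20000 genes. The simulation used the same dispersion for every gene. It called 0 of 19800 genes with no difference, 21% of those with a true log2 difference of 2 and 56% with 4. Many differences of the size seen among members would thus be missed. Whether replicates are separate cultures is not stated in the labels, and the FDR may then measure technical spread. The members and lists were chosen with earlier results of these data known. The 9 described members are named; genes alike were the 3 nearest for each coding member with a mean of at least 100, without pseudogenes and clone names. Of the genes found by the rule 1, and of the lists 2, are not reported here and enter no count of members or lists. GENCODE 29 matched 9 member IDs without and 8 with the version. Exons overlap those of a gene on the opposite strand for TAP1 (PSMB8-AS1, 456 bases), HLA-DQB1 (HLA-DQB1-AS1, 241 bases), HLA-F (HLA-F-AS1, 535 bases, and the pseudogenes AL645939.1, 701 bases, and RPL23AP1, 257 bases), HLA-B (pseudogene AL671883.2, 542 bases), HLA-G (pseudogene HCG4P8, 455 bases) and HLA-H (pseudogene AL645929.1, 349 bases). On the same strand, which stranded counting does not separate, HLA-DMB shares 438 exon bases with AL645941.2 and HLA-B 35 with HLA-C. HLA genes are highly polymorphic, and the effect of Jurkat alleles that differ from the reference on the counts was not tested. Python 3.11.15, pandas 2.3.3, numpy 2.4.6, scipy 1.17.1 and matplotlib 3.10.9 were used.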

Additional observations from a re-analysis of the deposited data

Results flagged for a closer look

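The response to activation differed between HuRKO and WT cells by a test of the difference itself for 7 genes among the members, the antigen presentation list and the MHC neighbours, a test that 20.2% of all listed genes passed. These were 1 of 9 members and 2 of 16 list genes. Of the 14 neighbours, 2 had a larger and 2 a smaller log2 response in HuRKO than in WT cells. The count is not set apart from the share over all listed genes. The rise was smaller in HuRKO than in WT cells for HLA-E, with a difference of -1.73 on the log2 scale, for STAT2 with -0.95, for IER3 with -3.02 and for NEU1, a lysosomal sialidase gene, with -1.07. IRF8 fell in HuRKO and rose in WT cells, with a difference of -3.08. The difference was 4.11 for LTB and 1.47 for DDAH2, which rose in HuRKO cells and were not called in WT cells. IER3, NEU1, LTB and DDAH2 lie within the same interval of the MHC as HLA-E. The test is a conservative normal approximation built from the deposited FDR values. IRF8 and DDAH2 passed the table's threshold only through activated HuRKO against activated WT cells, and STAT2 and NEU1 only through activation in WT cells. Those changes are part of the difference tested here, so selection favoured a difference. The passing of these genes therefore does not stand as support.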

How the results depend on the processing

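Counts of members and of antigen presentation genes were recomputed with FDR below 0.01, with calls of at least 2-fold, and with a mean level of at least 10; members were also counted without the pseudogene. Of 60 alternative values, 54 stayed within 1.5 times the value reported. Some of these could not move. The lowest mean of a member was 11.2, so the limit on the mean level could not change a count of members. Counts of 0 could not rise under a stricter filter. The share that stayed is therefore no measure of robustness. With FDR below 0.01 the count of members higher in resting HuRKO cells fell to 0, against 1, and that of list genes to 1, against 2. With calls of at least 2-fold, 1 list gene was lower in resting HuRKO cells, against 2, and 3 in activated HuRKO cells, against 7. Multiplying p by the 2587 listed genes gave 3 members with a different response, against 1. With the larger variance bound HLA-E alone passed, at an adjusted p of 0.0096. A floor of 3 counts per library put 1 level, that of HLA-DRB1 in resting HuRKO cells, below it, against 0. Reading the changes as natural logs put 0 levels below the floor.

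Leaving out a replicate was not run, as the values analysed here are group comparisons. No paired analysis was possible because the columns are comparisons of groups and carry no replicate numbers. Depth is unknown, and no limit from it is given.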
